A study of Mus musculus with 6 samples.

Results

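The peaks described here are AGO2 target peaks that lie in the interior of protein-coding genes in mouse embryonic stem cells. A peak is a stretch of the genome, on the mm10 build and with a strand, that the authors listed as a target of AGO2. A peak was taken as interior when its midpoint lay in the span of exactly 1 nuclear protein-coding gene of RefSeq GRCm38.p6, from 20% to below 90% of that span, counted from the end that is upstream on the strand of the peak. Of 3292 peaks in the series, 3070 lay in exactly 1 such gene, and 1566 of these were interior, in 997 genes. They make up 51.0% of the 3070 (exact 95% Clopper-Pearson interval 49.2 to 52.8) and 47.6% of all peaks. The last 10% of gene spans held 1274 peaks and the first 20% held 230. The position along the gene chose these peaks, so the split itself is no finding.

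The cells were embryonic stem cells of mouse with the genotype Spy3-Ago2, with E14 in the names of the deposited tables. They grew on gelatin in serum with LIF, which holds stem cells in the undifferentiated state. All libraries share that genotype and culture. Spy3-AGO2 was captured through SpyCatcher3, a protein that bonds covalently to the Spy3 tag, for the 2 miRNA and the 2 target libraries, and the 2 input libraries were made from whole lysate. The peaks form a single list for the whole series, with no value per library, so no spread between replicates can be given for any peak, and intervals cover counting error only.

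AGO2 is an Argonaute protein that carries microRNAs (miRNAs). A miRNA pairs through its seed, bases 2 to 8, with sites in messenger RNAs, and this lowers their translation and stability. The sites with the strongest known effect lie in the 3′ untranslated region, which ends at the downstream end of the gene. Argonaute is also known to contact coding sequence, and the coding sequence and introns take up most of a gene's interior. Exon borders were not used here, so the interior is a stretch of the gene span and is not equated with coding sequence or with introns.

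Sequence is shown to make concrete what an interior peak looks like. Of the 1566 interior peaks, 4 lay wholly within a RefSeq promoter window (250 bases before to 50 after an annotated start, GRCm38.p6), and only for these was sequence to hand. They were therefore picked by the windows and do not stand for the others. Each is written 5′ to 3′ on the peak strand, in lower case throughout because no seed match was found to mark with capitals.
Nt5dc2, chr14:31134740-31134772, plus strand: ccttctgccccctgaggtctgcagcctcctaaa
Csnk1e, chr15:79426263-79426318, minus strand: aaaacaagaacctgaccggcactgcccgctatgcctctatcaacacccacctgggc
Ptprf, chr4:118257647-118257678, minus strand: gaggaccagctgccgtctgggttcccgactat
Trak1, chr9:121454330-121454381, plus strand: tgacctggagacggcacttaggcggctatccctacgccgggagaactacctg

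These peaks were 33, 56, 32 and 52 nt wide and lay 45.6%, 77.6%, 40.6% and 88.4% of the way along their genes. G and C made up 60.6%, 57.1%, 62.5% and 61.5% of their bases. The Nt5dc2 peak began 4 nt past an annotated start inside its own gene, so that it is interior to the whole span and close to one of its starts. The other windows belong to the annotated starts of Gm16059 at Csnk1e, which encodes a casein kinase, Gm40235 at Ptprf, a receptor phosphatase gene, and Gm51661 at Trak1, a gene for a mitochondrial transport adaptor. The peaks in these windows lay before those starts. At Csnk1e and Trak1 the peak was also on the strand opposite to the window. Each peak was searched on its own strand for exact complements of the seeds of the 20 most abundant miRNAs in the 2 miRNA libraries, of which 18 had a sequence and which gave 14 distinct seeds. The letters searched were GTTTGAG for miR-290a-5p and miR-292a-5p, GTGCAAT for miR-92a-3p, TTGCCAA for miR-182-5p, TTTGCAC for miR-19b-3p and miR-19a-3p, TGCTGCT for miR-16-5p, CTTTGAT for miR-291a-5p, AGCACTT for miR-291a-3p and miR-295-3p. They were further GGATCCG for miR-127-3p, GTGCCAT for miR-183-5p, GCACTTT for miR-20a-5p and miR-17-5p, ACTGTGA for miR-27a-3p, TTTTGAG for miR-294-5p, GTGCCAA for miR-96-5p, and TACTTGA for miR-26a-5p. The commonest of these was miR-290a-5p, the leading miRNA of the stem cell cluster miR-290/miR-295, with 24.1% and 23.5% of the counts in replicates 1 and 2 (totals of 12562727 and 22908172 counts):
miR-290a-5p (seed in capitals): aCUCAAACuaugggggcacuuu
Its seed match GTTTGAG was in none of the 4 peaks, nor was any other. Among the first 56 bases of all 32851 promoter windows, 4.58% held at least 1 of the 14, so that no match in 4 short stretches says only that these letters are not there.

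The labelled cell type was set against its markers over all peaks in a single protein-coding gene. Of 10 stem cell marker genes, 6 had a peak and 3 had an interior peak, Nanog, Tdgf1 and Lin28a. Fibroblast, endoderm and blood markers had no peak (0 of 12 genes in each list), and of 12 neuronal markers Stmn2 alone had a peak, an interior one. Over all 21887 nuclear protein-coding genes 1716 had a peak, 7.84%, so that 0 or 1 of 12 is near the share of any genes and says little about the cell type. A gene without a peak is not thereby unexpressed, since abundance was not measured here.

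Within the interior, peaks became more frequent toward the downstream end. The stretch from 20% to 30% of the span held 111 peaks, that from 50% to 60% held 218, and that from 80% to 90% held 385. As shares of the 3070 peaks these are 3.62% (2.98 to 4.34), 7.10% (6.22 to 8.07) and 12.5% (11.4 to 13.8). The last 10%, which adjoins the interior, held 41.5%. In nucleotides, the median interior peak lay 11768 nt from the downstream end of its gene (quartiles 3982 and 27997) and 21064 nt from the upstream end. Within 2000 nt of the downstream end lay 198 interior peaks (12.6%), and 104 (6.64%) lay within 2000 nt of the upstream end. The bounds set much of this: in spans above 20000 nt no interior peak can be that close to the downstream end. The cut is wider at the upstream end, so the difference between the ends is no finding either. More than 10000 nt from the downstream end lay 843 interior peaks, 53.8% (51.3 to 56.3).

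**Figure D1:**
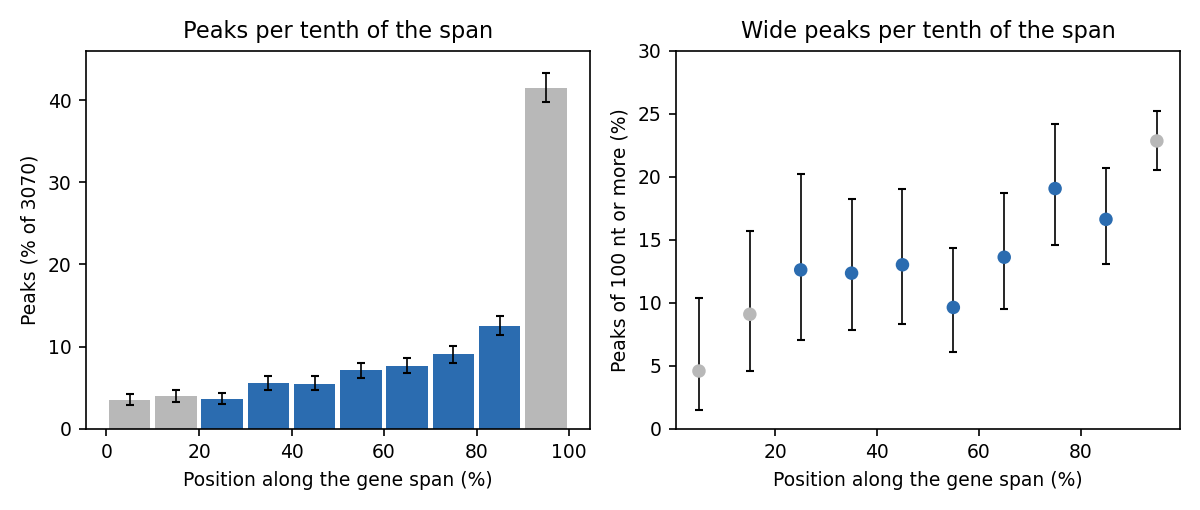
Left, share of the 3070 peaks in exactly 1 nuclear protein-coding gene per 10% of the gene span, from upstream to downstream on the peak strand; right, share of the peaks in each stretch that are at least 100 nt wide (%). Blue marks the interior and grey the ends, error bars are exact 95% Clopper-Pearson intervals, and the blue bars climb from 3.62% to 12.5% before the step to 41.5%.

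The genes with interior peaks were long. Their median span was 32480 nt (quartiles 13766 and 73309), against 17169 nt for all 21887 nuclear protein-coding genes of the annotation. Genes with a peak in the last 10% had a median of 36738 nt and those with a peak in the first 20% a median of 50597 nt. The intervals of the median were 29507 to 37765 nt for interior genes and 33644 to 41726 nt for the last 10%, which overlap. The difference was not tested, because many genes are in both sets.

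The share of a gene's peaks that were interior depended little on span above 20000 nt and was higher in short genes. In spans up to 5000 nt, 164 of 250 peaks were interior, 65.6% (59.4 to 71.5), and in longer genes 1402 of 2820, 49.7% (47.9 to 51.6). In the shortest class, up to 2000 nt, it was 23 of 42, 54.8% (38.7 to 70.2), an interval that includes the share of longer genes. Many of the genes up to 5000 nt are ribosomal protein genes, whose counts are uncertain, as given below. Between 20000 and 50000 nt the share was 48.9%, between 50000 and 100000 nt 47.4%, and above 200000 nt 49.4%. The interior of a short gene lies close to its end: in spans above 2000 and up to 5000 nt, 107 of 141 interior peaks lay within 2000 nt of the downstream end, and above 20000 nt none did by construction. The longest genes were represented by single interior peaks. Immp2l, which encodes a mitochondrial inner membrane peptidase, spans 931528 nt and had 1 interior peak, 58 nt wide. Wwox, an oxidoreductase gene at a fragile site, spans 913078 nt and had 1 of 44 nt, in the middle of the gene at 50.3%. Etl4 (900329 nt), Zbtb20 (758704 nt), a transcription factor gene, and Rora (734843 nt), a nuclear receptor gene, each had 1 as well.

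**Figure D2:**
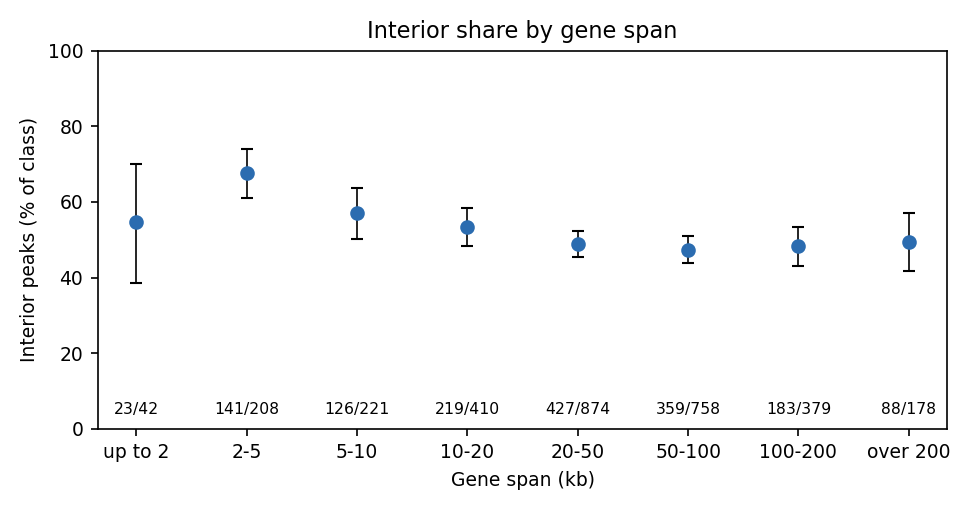
Share of peaks that are interior (%, points, with exact 95% Clopper-Pearson intervals) in 8 classes of gene span (kb); the fractions give interior peaks over all peaks of the class. The share is highest in genes of 2 to 5 kb, at 67.8%, and lies between 47.4% and 49.4% in the 4 classes above 20 kb.

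Interior peaks were short stretches, with a median width of 57 nt (quartiles 44 and 81, range 15 to 428). Peaks in the last 10% had a median of 63 nt (49 and 95), and those in the first 20% of 50.5 nt (41.25 and 66.75). A width of at least 100 nt was reached by 227 interior peaks, 14.5% (12.8 to 16.3), against 22.8% (20.6 to 25.2) in the last 10% and 6.96% (4.03 to 11.1) in the first 20%. With 1 peak per gene the wide shares were 12.3% and 21.3% for the interior and the last 10%, each gene then counting once. In the 252 genes that had both kinds, the mean interior width was smaller in 139, larger in 111 and equal in 2, with a median difference of interior minus last 10% of -5.5 nt. The interval of the share with smaller interior width, 48.8% to 61.4%, includes an even split. No test was made between the sets, since the peaks of a gene share their transcript.

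The widest interior peak lay in Mki67, which encodes the proliferation marker Ki-67. It covered 428 nt at chr7:135697462-135697889, 70.4% along the gene, where the other interior peaks of Mki67 were 48 to 110 nt. Spry4, a gene for an inhibitor of FGF signalling, had one of 401 nt, and Ctnnb1, which encodes beta-catenin, one of 340 nt at chr9:120955329-120955668. Rrm2, the gene for a ribonucleotide reductase subunit, had one of 272 nt and Fzd5, a WNT receptor gene, one of 268 nt. These wide peaks sat at quite different places, from 31.6% of the span in Fzd5 to 89.9% in Rrm2.

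Most genes had a single interior peak. That was so for 706 of the 997 genes (70.8%), while 291 genes had at least 2 and together held 860 interior peaks, 54.9% of all. At least 5 were found in 29 genes, with 193 peaks. A peak in the last 10% was also present in 252 of the 997 genes, 25.3% (22.6 to 28.1), which are 28.9% of the 872 genes with a peak there. In 698 genes (70.0%) the interior held every peak of the gene. Most interior peaks, 1032 of 1566, thus stood in genes with no peak in the last 10%. Over all 21887 nuclear protein-coding genes, however, only 872 had a peak in the last 10%, a smaller share than 252 of 997. A peak there was thus more frequent among genes with an interior peak than among all genes, which was not tested.

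Neighbouring interior peaks of a gene covered a wide and continuous range of distances. The 568 gaps between neighbours on the same strand had a median of 1834 nt (quartiles 245 and 7513) and reached 163097 nt. Of these gaps 82 were at most 50 nt, and 131, 23.1% (19.7 to 26.8), at most 200 nt. By 2000 nt the count had reached 293 and by 10000 nt 457. No gap was below 21 nt, either here or between any peaks of the whole list, and 10, 11 and 10 pairs stood at exactly 21, 22 and 23 nt. The gaps thus began sharply at 21 nt, and whether close peaks belong to 1 stretch of bound RNA was not tested. Interior peaks with an interior neighbour within 200 nt (231) had a median width of 56 nt and the other 1335 had 57 nt. Neighbours beyond the bounds were not counted here. In the last 10%, 181 of 402 gaps (45.0%) were at most 200 nt and the median gap was 270.5 nt (199 to 355), where the stretch of gene considered is also shorter.

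The peak names carry a number that rises along each strand of each chromosome and reaches 30438. A jump between neighbours counts names that are not among the interior peaks. Whether each of them is absent from the whole list was not checked. For 210 of the 568 neighbouring pairs (37.0%) the numbers were consecutive, and the median gap was 135.5 nt. For the other 358 at least 1 number was skipped, and the median gap was 3672 nt. Of the 131 pairs within 200 nt, 115 were consecutive. At least 5 skipped numbers lay between 122 pairs, and none of these were within 200 nt of each other. Close pairs were mostly consecutive in number and distant pairs mostly not.

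**Figure D3:**
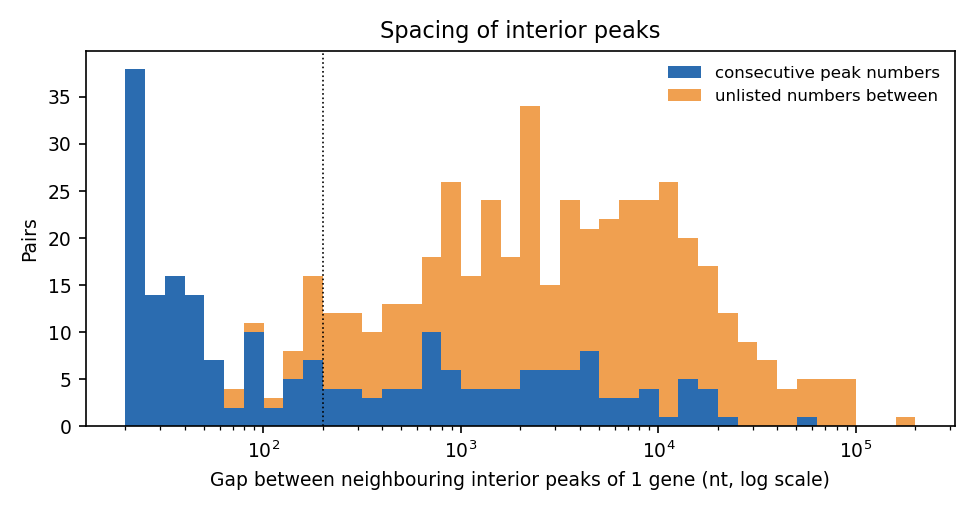
Number of neighbouring pairs of interior peaks in 1 gene (y axis) by the gap between them (x axis, nt, log scale). Colour shows whether the peak numbers are consecutive (blue) or skip at least 1 number (orange). The dotted line marks 200 nt; 131 of 568 pairs lie at or below it, and the smallest gap is 21 nt.

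Linking interior peaks at most 200 nt apart gave 82 runs of 2 peaks, 8 of 3, 7 of 4 and 3 of 5. Peaks beyond the bounds were left out, so a row of close peaks that crosses a bound is counted only in part. In Lefty1 a run of 2 interior peaks continued into 5 close peaks in the last 10%, and a run in Fgf4 also crossed that bound. The runs of 5 were in Klf2, Lamp2 and Sall1. Klf2, a transcription factor gene of naive pluripotency, had 5 peaks in all, of 80, 122, 73, 130 and 27 nt, which lay in a row at chr8:72320745-72321286 and covered 432 of those 542 nt. It had none in the last 10%, and the midpoint of its most downstream peak was 381 nt from the end of a gene of 2593 nt. In Lamp2, which encodes a lysosomal membrane protein, the run spanned 590 nt near 63% of the gene, and in Sall1, a zinc finger transcription factor gene, 417 nt from 81.6% to 83.6%. Runs of 4 included one of 366 nt in Tet1 and one of 317 nt in Fgf4. Of the 10 pairs 21 nt apart, the first 5 by gene symbol were in Ago2, Akap1, Jam2 and Resf1, where Akap1 had 2 in a row.

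Fn1, the gene for the matrix protein fibronectin, had the most interior peaks, 17 of its 23. They were spread from 35.1% to 82.6% of a 67808 nt span, with widths of 28 to 199 nt (median 50) and gaps of 29 to 8679 nt (median 1344). Srrm2, which encodes a scaffold of the spliceosome, had 12 of 15, with 11 of them between 73.9% and 88.0%. Sall1 had 10 of 16 between 65.8% and 83.6%, and Prrc2a, a gene for a large RNA-associated protein, 9 of 10, between 41.6% and 89.0%, 56 to 141 nt wide. The interior peaks were thus spread out in Fn1 and crowded in Srrm2 and Sall1.

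Genes with 5 to 8 interior peaks followed. Huwe1, a HECT ubiquitin ligase gene of 134633 nt, had 8 interior peaks with gaps of 381 to 20283 nt, and Trip12, another ligase of that class, had 7 between 52.1% and 76.4%. Usp9x, a deubiquitinase gene, had 7 that reached from 22.6% to 83.5% of 102347 nt. Zfp106, which encodes a zinc finger RNA-binding protein, had 7, and Mki67 had 7. Usp9x, Zfp106, Mki67, Ago2 and Macf1, a giant cytoskeletal linker gene of 338170 nt with 6, led the genes that had no peak in the last 10%. Lamp2 also had 7, and Adgrl1, an adhesion receptor gene, Akap1, a mitochondrial anchor gene, Fgf4, Hspa8 and Tet1 had 6 each. Ctnnb1, Gigyf1, a translation repressor gene, and Kdm5b, a histone demethylase gene, closed the first 20 with 5 each; further genes with 5 were left out by the alphabet.

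Per length the order was another. Fgf4, a growth factor gene that drives stem cells toward differentiation, had 2.22 interior peaks per 1000 nt of interior, Hspa8 2.18 and Klf2 2.75, whereas Fn1 had 0.358, Huwe1 0.0849 and Macf1 0.0253. The short histone genes H4c6, H4c8, H2ac13, H4c2, H2ac20 and H3c8, with 1 interior peak each, stood above all of these. Their densities ran from 3.73 in H4c6, in a span of 383 nt, down to 2.90 in H3c8, in 492 nt. With 1 peak the density depends on the span alone, so a longer histone gene such as H3c6 (911 nt) lies lower. Densities were compared only among genes named by rule, and other genes may stand as high. Transcript abundance and exon length were not used in these densities.

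**Figure D4:**
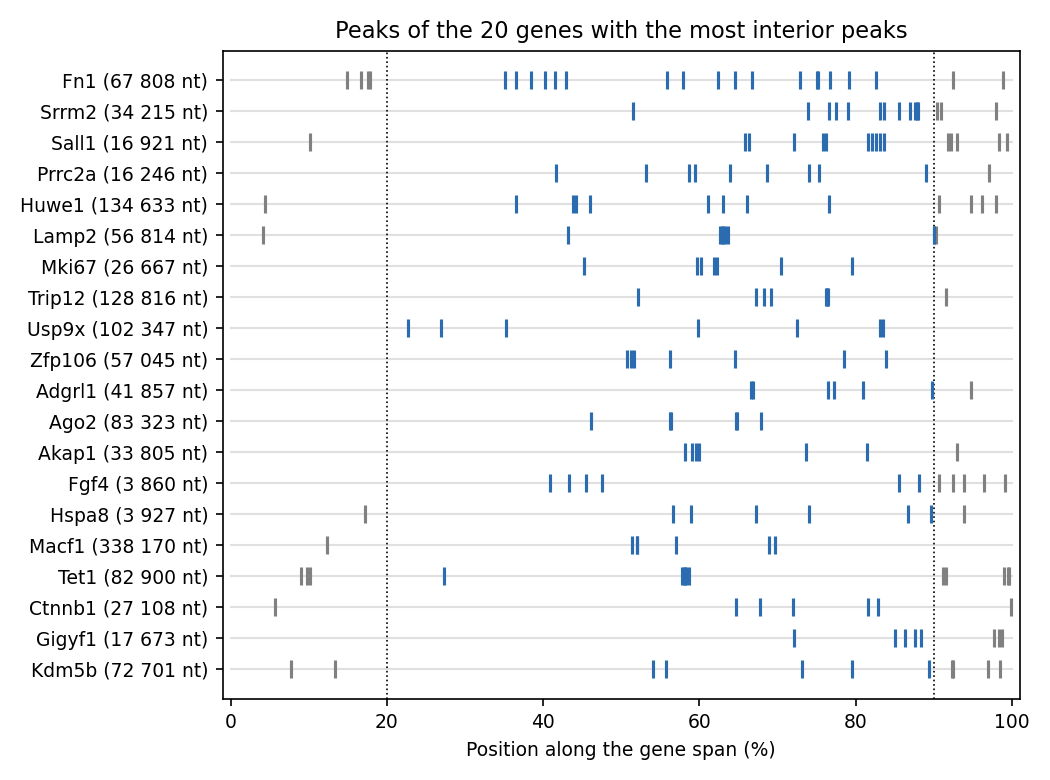
Position of every peak (ticks, % of the gene span from its upstream end) in the 20 genes with the most interior peaks, with the span of each gene beside its name. Blue ticks are interior, grey ticks lie beyond the dotted lines at 20% and 90%; Usp9x, Zfp106, Mki67, Ago2 and Macf1 have no tick in the last 10%.

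Ago2, which encodes the protein that was pulled down, itself carried 6 peaks, all interior. They stood on the minus strand of chromosome 15 at 73128374 to 73128430, 73130869 to 73130954, 73130991 to 73131043, 73137992 to 73138019, 73138041 to 73138115 and 73146427 to 73146537. Their positions ran from 46.2% to 67.9% of the span, and the most downstream one was 26777 nt from the end of the gene. Among 23 genes of the miRNA pathway, 10 had an interior peak, where 997 of all 21887 nuclear protein-coding genes had one. Of the 36 peaks in the pathway genes, 27 were interior, 75% (57.8 to 87.9), beside 51.0% over all genes. Tnrc6a and Tnrc6c, partners of Argonaute in silencing, and Cnot1, the scaffold of the deadenylase complex, had 3 each. Tnrc6b, Ago1 and the RNA-binding protein gene Larp1 had 2 each.

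For the other lists, interior shares are to be read beside that 51.0%, and counts of genes with interior peaks beside 997 of 21887. The lists were chosen with results of these data known, and no list was tested. Of 34 splicing and RNA helicase genes, 11 had interior peaks, which were 34 of 47 peaks, 72.3% (57.4 to 84.4). Srrm2 gave 12 of them, Snrnp200, a helicase of the spliceosome, 5, Prpf8, at its catalytic core, 4, Son and Ddx5 3 each, and Hnrnpu 2. Of 25 HECT and UBR ubiquitin ligase genes, 8 had interior peaks, 28 of 41 (68.3%), with 8 from Huwe1, 7 from Trip12, 4 from Nedd4 and 3 from Ubr4. These lists rest on few genes, and single genes gave a large part of each.

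Among 23 translation factor genes, 10 had interior peaks, 22 of 39 (56.4%). Eef1a1, the elongation factor that brings tRNA to the ribosome, and the initiation factor genes Eif4a1 and Eif4g2 had 4 each, Pabpc1, for the poly(A) binding protein, 3 and Eif3a 2. Among 43 genes for cytoskeletal, motor and scaffold proteins, 16 had interior peaks, 29 of 52 (55.8%). Macf1 had 6. Iqgap1 and Dync1h1, the heavy chain of dynein, had 4 each, Flna and Sptbn1 2 each, and these 4 genes had no peak outside the interior. Among 39 chromatin remodelling genes, 16 had interior peaks, 31 of 61 (50.8%), with 4 each in Mga, Chd8 and Baz2a, 3 in Arid1a and 2 each in Chd4, Brd2 and Rif1. All 4 peaks of Chd8, a helicase gene, were wide, from 112 to 239 nt.

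Other lists lay below the overall share. For 45 signalling genes it was 23 of 48 (47.9%), with 5 in Ctnnb1, 5 in Ptch1, the Hedgehog receptor gene, and 2 each in Spry2 and Spry4. For 18 DNA methylation genes it was 13 of 28 (46.4%), with 6 in Tet1, 4 in Tet2, both genes for enzymes that oxidise methylcytosine, and 2 in Dnmt1, the maintenance methyltransferase gene. For 35 pluripotency genes it was 37 of 82 (45.1%), from 15 genes, with 10 in Sall1, 6 in Fgf4, 5 in Klf2, 3 in Lifr, the LIF receptor gene, and 2 each in Lefty1 and Tdgf1. For 37 matrix and adhesion genes it was 24 of 55 (43.6%), of which Fn1 gave 17, Lama5 2 and Cdh1 2. For 53 histone modifier genes it was 39 of 96 (40.6%), with 5 in Kdm5b, 4 in Jarid2, a Polycomb partner gene, 4 in Hcfc1, and 2 each in Crebbp, Ep300, Ep400, Kat6b, Kmt2c, Kmt2d, Ncor1 and Nsd1. The intervals were wide, 33.3 to 62.8, 27.5 to 66.1, 34.1 to 56.5 and 30.3 to 57.7 for the first 4 of these lists and 30.7 to 51.1 for the last, and all 5 include the overall share.

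Some interior peaks lay on small nucleolar RNAs (snoRNAs), which guide chemical modification of ribosomal RNA and are mostly cut out of the introns of host genes. By at least 1 shared base, 21 interior peaks (1.34%, interval 0.832 to 2.04) overlapped an annotated snoRNA gene, in 16 host genes. No peak of the last 10% did so (0 of 1274, interval up to 0.289%), and 2 of 230 did in the first 20%. Of the 21 interior peaks over a snoRNA, 17 lay wholly inside it, and the median share of the snoRNA covered was 92.6%. In Hspa8, which encodes a heat shock chaperone, a 90 nt peak at chr9:40804749-40804838 covered all but the first base of Snord14e (40804748 to 40804838). A second one, of 17 nt, lay in Snord14c. In Rpl13a a 77 nt peak covered 95.1% of Snord32a, and in Rpl37 a 72 nt peak covered all of Snord72.

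Ribosomal protein genes held 10 of these 21 peaks, with 2 each in Rpl17 and Rpl7a and 1 each in Rpl10, Rpl13a, Rpl21, Rpl23a, Rpl3 and Rpl37. Nop58, itself a gene for a core snoRNA protein, and Ubap2 had 2 each. At the other extreme stood Rpl3, where the peak and the snoRNA shared 1 base, and Eif4g2, Kif13b and Hspa8, where a peak covered 23.2%, 34.8% and 19.5% of a snoRNA. The annotation table gives no strand for these snoRNA genes, so whether they run with the peaks was not tested. No interior peak overlapped a miRNA gene (0 of 1566, interval up to 0.235%), nor did any in the last 10% or the first 20%. A long noncoding RNA gene was overlapped by 29 interior peaks (1.85%), 48 peaks (3.77%) of the last 10% and 14 (6.09%) of the first 20%.

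**Figure D5:**
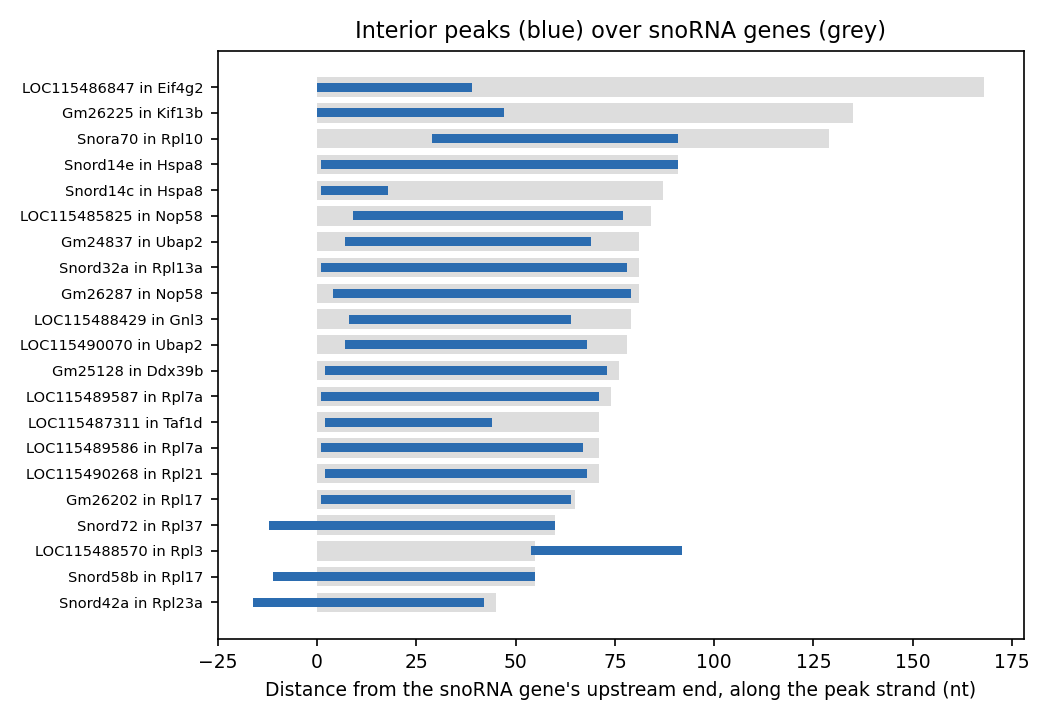
The 21 interior peaks over snoRNA genes: grey bars are the snoRNA genes from their upstream end and blue bars the peaks, both in nt along the peak strand, with host gene names beside them. For 17 peaks the blue bar lies wholly within the grey one, and the longest blue bar, 90 nt in Hspa8, covers 98.9% of its snoRNA.

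Short genes gave interior peaks of another kind. The 5 shortest were the histone genes H4c6 (383 nt), H4c8, H2ac13, H4c2 and H2ac20 (468 nt), whose messages end in a stem-loop and carry no poly(A) tail. Across the clustered core histone genes, 10 interior peaks lay in 10 genes, of 26 peaks in all, which is 38.5% (20.2 to 59.4) beside 51.0% over all genes. They were 49 to 99 nt wide and covered 9.66% to 22.5% of the span. Their downstream edge was a median of 10.5 nt from the end of the gene, and 4 nt in H3c8, so apart from H2ac10 and H3c6, with 83 and 434 nt, they reached within 26 nt of it. In these genes a peak at the very end counts as interior because its midpoint is then before 90% of the span. Histone genes are near-identical copies, and the division of reads among them is uncertain.

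Ribosomal protein genes had 81 interior peaks of 113, 71.7% (62.4 to 79.8), in 44 genes with a median span of 3620 nt. That is near the 67.8% (141 of 208) of all peaks in spans above 2000 and up to 5000 nt, a class that includes many of these genes. Rpl17 had 5, and Rpl14, Rpl7 and Rpl7a had 4 each. Both groups were singled out after their values were seen. Many ribosomal protein genes have processed copies elsewhere in the genome, and the same holds for Eef1a1 and Hspa8, so these counts are uncertain as well.

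The strand of the gene was known for 1256 interior peaks from the promoter table, and 1244 of them, 99.0% (98.3 to 99.5), lay on it. In the last 10% the share was 99.7% and in the first 20% 95.0%. The 12 interior peaks on the opposite strand were in 12 genes, among them Atf2, Camk2d, Arhgap15, Lrig2, Pzp and Tmtc1, with a median width of 44.5 nt and a median span of 74672 nt. Reading them along the peak strand measures their position from the wrong end of the gene. Of the 1244 peaks on the gene strand, 18 in 17 genes had a further annotated start of the same gene downstream of them.

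Rtl1 is a case where the assignment to a gene interior is in doubt. It is an imprinted gene of the Dlk1-Dio3 region, where an antisense transcript carries many miRNAs, and its strand was not in the promoter table. Its 4 interior peaks stood on the plus strand of chromosome 12, 3 of them in a row at 109578006 to 109578300 and the fourth at 109588943 to 109589004. Of the 15 miRNA hairpins within the Rtl1 span, 13 are on the plus strand, and the nearest to the fourth peak was Mir3070b, 262 nt away. The peaks thus share the strand of most hairpins, and whether they belong to the Rtl1 message was not tested.

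The peaks nearest to the bounds were as follows. Just inside the upstream bound were Tut4, a gene for an RNA uridylyltransferase, at 20.01% (35 nt) and Dmxl1 at 20.07% (49 nt), and just outside Sec16a at 19.95% (336 nt) and Wdr5 at 19.90% (110 nt). Just inside the downstream bound were Lamp2 at 89.95% (26 nt) and H3c8 at 89.94% (90 nt), and just outside Slc35b4 at 90.01% (48 nt) and Acly at 90.03% (43 nt).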

How the data were processed

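The authors deposited 1 peak list (BED, 6 columns, start and end on mm10, strand) for the whole series, whose score was 0 for every peak, so peaks could not be ranked. Per the labels' protocols, miRNA and target RNA came off a gel with Spy3-AGO2, adapters with random bases were ligated, and libraries were read from a single end. Without giving roles, the submitters' processing notes list deepTools 3.1.3, DESeq2 1.36.0, Bowtie2 2.4.2, STAR 2.5.2a, cutadapt 2.10 and UMI-tools. The sources used here do not give how peaks were found, at which threshold, or whether against the inputs. A stricter or looser list would change every count. The deposited miRNA tables hold raw counts per mature miRNA and were used only to pick the 20 most abundant.

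Gene spans came from RefSeq GRCm38.p6, the assembly of mm10. The position is the distance of the peak midpoint from the upstream end divided by the span. The members and lists were chosen with earlier results of these data known. With 1 list and no values per library, no test between groups was made. Medians have intervals from binomial order statistics and shares have exact Clopper-Pearson intervals, both at 95%. Peaks of a gene are not independent, so these intervals are too narrow.

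Genes were named by rule: the 20 with the most interior peaks (ties by symbol), the first 5 of these without a peak in the last 10%, the 5 longest and 5 shortest spans, the 5 widest peaks, the 5 closest pairs, the 2 peaks on each side of each bound, and list genes with at least 2 interior peaks, some of which are not reported here. The genes of sequences, runs, snoRNAs, ribosomal proteins, opposite strands, Rtl1, H2ac10 and the stem cell and neuronal markers were named after their values were seen. Assignment was tested on simulated data, where 500 of 500 simulated peaks were placed correctly. Summaries were computed with pandas 2.3.3, scipy 1.17.1 and numpy 2.4.6, and plots with matplotlib 3.10.9, under Python 3.11.15.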

Additional observations from a re-analysis of the deposited data

How the results depend on the processing

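The 7 summary values were recomputed under 12 alternatives, of which 9 were planned and 3 were chosen after seeing the data: position counted to the middle of a base, peaks over snoRNA genes left out, and only the most upstream interior peak of each gene. Of 83 values, 80 stayed within the interval of the main value or, for counts, within 1.5 times. Some of these could not move: with 1 peak per gene, the gene count, the median span and the overlap with the last 10% are fixed. The rule for counts is loose, as bounds of 30% and 80% left 1070 peaks in 720 genes and still passed. The median gene span rose to 46808 nt with only spans of at least 10000 nt and to 43212 nt with only peaks at least 2000 nt from both ends, as both leave out short genes, and 1 peak per gene leaves 997 peaks. Merging peaks less than 10 nt apart changed nothing, since none were that close. The share of gaps within 200 nt could not be given with 1 peak per gene. No paired analysis was possible because the peak list has no values per replicate, and for the same reason no replicate could be left out. Depth behind single peaks is unknown.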

Other observations

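The interior share differed between chromosomes, from 46 of 70 peaks (65.7%) on chromosome 18 to 56 of 166 (33.7%) on chromosome 13. On chromosome X, 58 interior peaks fell in 23 genes, with 8 in Huwe1 and 7 each in Usp9x and Lamp2. These values are given without a test, and the chromosomes were singled out after the values were seen.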
